A study of Homo sapiens with 18 samples.

Results

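The genes described here are 28 members of cholesterol and fatty acid synthesis, chosen by name from textbook pathway membership out of the 23710 genes in each count table. They comprise 7 genes of the mevalonate steps, 9 genes of squalene and sterol synthesis, 4 genes that regulate the pathway or move sterol within the cell, and 8 genes of fatty acid synthesis and desaturation. All 28 members had enough counts to be tested in every comparison. RNA was sequenced in 16 libraries of A253, SCC25 and CAL27, established lines from human squamous carcinomas of the head and neck. In each line the amount of EHF, an ETS-family transcription factor of epithelia, had been changed. EHF overexpression was induced with 1 µg of doxycycline in A253 (3 libraries) and SCC25 (2 libraries), and the control libraries of these lines (3 and 2) came from cells in regular medium, so that doxycycline and EHF cannot be told apart. CAL27 carried EHF knockdown by a hairpin named sh 64 (2 libraries) or one named sh 65 (2 libraries). They were set against 2 control libraries, and all were in regular medium. These CAL27 controls are named sh Control in the counts and Control Cells in the sample titles. The sources used here give neither the promoter that drove EHF nor whether the hairpin lines were clones or pools, and they do not say whether replicates were separate cultures, so p-values measure the spread between these libraries only.

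Cells make cholesterol from acetyl-CoA by way of mevalonate, squalene and lanosterol, and they make fatty acids from acetyl-CoA by way of malonyl-CoA. The genes of both branches are switched on by the sterol regulatory element binding proteins: the product of SREBF2 acts mainly on sterol genes and the product of SREBF1 mainly on fatty acid genes. Both proteins are held in the endoplasmic reticulum when sterols are plentiful, by INSIG proteins among others, and their release depends on processing of the protein, which RNA levels do not measure. Transcription of SREBF1 is itself activated by the sterol-sensing liver X receptors in many tissues. Keratinized squamous epithelium uses lipids of both branches for the barrier of its outer layers.

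EHF itself followed the labels in every library. EHF stood at 765, 710.4 and 632 counts-per-million (CPM, scaled by the trimmed mean of M-values, TMM) in A253 overexpression libraries, against 84.4, 91.3 and 83.1 CPM in A253 controls. It stood at 859 and 892 CPM in SCC25 overexpression libraries, against 460.3 and 419.7 CPM in SCC25 controls. In CAL27 it stood at 496 and 525 CPM with sh 64 and 443 and 469 CPM with sh 65, against 961 and 990.4 CPM in controls. The groups did not overlap in any line, and the rise was far larger in A253 (log2 change 3.02) than in SCC25 (log2 change 0.99). The difference in EHF between the hairpins was -0.16 ± 0.07 on the log2 scale (sh 65 minus sh 64, ± SE) and did not pass the threshold (adjusted p = 0.23). Library totals ranged from 7068155 to 19962159 counts. Keratinocyte and epithelial markers were abundant in all 3 lines, and of 6 leukocyte markers PTPRC and CD3E were at or near 0. CD68, a lysosomal protein that cells other than leukocytes also make, reached 232 TPM (transcripts-per-million) and CD14 47.6 TPM, and the leukocyte list summed to 137 to 210 TPM in A253, 263 to 276 TPM in SCC25 and 39.8 to 48.3 TPM in CAL27. The deposited counts and TPM of CAL27 give the hairpin names the other way round. They also number the 2 libraries named sh 64 in the counts in opposite order. The names and numbers of the counts are used throughout, so sh 64 and sh 65 could be exchanged. The difference between them and their mean do not depend on the names, except for the sign of the difference.

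The promoter windows of 6 members are shown because the results below turn on these genes: SCD, INSIG1 and HMGCS1 separated the hairpins most widely, CYP51A1 fell furthest with sh 65, and SREBF1 and SREBF2 encode the regulators. The sequences are RefSeq windows on GRCh38.p14, from 250 bases before to 50 bases after a transcription start, printed in the direction of the gene. Capitals mark the nuclear factor Y box (CCAAT, or ATTGG on the other strand), the sterol regulatory element and an ETS core (CCGGAAG, or CTTCCGG on the other strand).
SCD, chr10:100346983-100347282, plus strand: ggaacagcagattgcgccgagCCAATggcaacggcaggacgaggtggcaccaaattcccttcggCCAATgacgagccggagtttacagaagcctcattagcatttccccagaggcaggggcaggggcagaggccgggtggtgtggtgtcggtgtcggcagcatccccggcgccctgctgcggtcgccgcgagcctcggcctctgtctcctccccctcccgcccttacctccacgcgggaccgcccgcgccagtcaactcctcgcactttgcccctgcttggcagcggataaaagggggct
INSIG1, chr7:155297628-155297927, plus strand: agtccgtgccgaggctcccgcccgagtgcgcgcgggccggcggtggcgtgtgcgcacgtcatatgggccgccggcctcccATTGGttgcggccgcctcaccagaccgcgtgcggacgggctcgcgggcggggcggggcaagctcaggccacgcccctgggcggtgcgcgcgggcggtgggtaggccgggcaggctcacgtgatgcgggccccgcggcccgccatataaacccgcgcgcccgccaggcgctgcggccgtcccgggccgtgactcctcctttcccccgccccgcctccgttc
HMGCS1, chr5:43313363-43313662, minus strand: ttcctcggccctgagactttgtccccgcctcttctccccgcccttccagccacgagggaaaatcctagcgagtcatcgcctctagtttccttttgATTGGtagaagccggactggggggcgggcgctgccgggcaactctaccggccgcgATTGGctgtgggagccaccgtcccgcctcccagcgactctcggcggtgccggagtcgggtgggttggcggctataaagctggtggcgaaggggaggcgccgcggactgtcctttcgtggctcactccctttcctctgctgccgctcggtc
CYP51A1, chr7:92134428-92134727, minus strand: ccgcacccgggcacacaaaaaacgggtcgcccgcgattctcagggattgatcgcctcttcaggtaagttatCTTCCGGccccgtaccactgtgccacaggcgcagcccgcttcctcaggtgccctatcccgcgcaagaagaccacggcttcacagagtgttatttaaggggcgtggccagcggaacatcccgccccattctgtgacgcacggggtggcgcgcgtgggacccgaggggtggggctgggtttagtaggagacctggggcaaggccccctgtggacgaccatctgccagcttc
SREBF1, chr17:17836937-17837236, minus strand: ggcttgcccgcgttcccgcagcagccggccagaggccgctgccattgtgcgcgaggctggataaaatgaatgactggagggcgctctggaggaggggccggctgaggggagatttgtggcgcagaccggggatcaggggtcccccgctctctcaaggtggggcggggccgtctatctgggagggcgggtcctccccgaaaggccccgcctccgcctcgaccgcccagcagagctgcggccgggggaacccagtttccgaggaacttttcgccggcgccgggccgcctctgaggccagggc
SREBF2, chr22:41832855-41833154, plus strand: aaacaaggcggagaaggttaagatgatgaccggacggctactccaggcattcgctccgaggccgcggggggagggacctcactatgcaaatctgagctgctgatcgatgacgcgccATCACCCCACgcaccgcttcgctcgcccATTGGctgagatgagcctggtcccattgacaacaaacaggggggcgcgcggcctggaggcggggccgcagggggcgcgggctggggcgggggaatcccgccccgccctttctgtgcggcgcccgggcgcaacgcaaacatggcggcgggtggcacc
Windows were found for 24 of the 28 members. Both strands were searched. The nuclear factor Y box was present for 19 of these 24 members (79.2%), against 39.7% of the 27305 genes with a window and 43.2% of the 9681 of them tested in CAL27. The GC box GGGCGG was present for 23 of 24 members (95.8%), against 48.3% and 76.0%. The sterol regulatory element was searched as 1 exact string, the first run of capitals in the SREBF2 window. This string was present in 1 member window, that of SREBF2, where it begins at base -134 from the start. It was present for 0.059% of all genes with a window. Among the members, its shorter form TCACNCCAC matched the same bases only. Variants of the element with other letters were not searched, so member windows without a match may still hold one. The ETS core CCGGAAG was present for 4 of 24 members (16.7%; FDPS, CYP51A1, IDI1 and ACSS2), against 12.2% and 21.8%. The second ETS core searched, CAGGAAG, was present for 2 of 24 members (8.33%; FADS1 and ACSS2), against 15.2% and 16.8%. The E-box CACGTG was present for 2 of 24 members (8.33%), INSIG1 among them, against 8.78% and 12.5%. These matches are letters in a short window and were not tested as binding sites.

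In control cells, the members were expressed at very different levels, and the lines differed in which members led. Levels in this paragraph are TPM, which correct for gene length, as mean ± SD over 3 A253, 2 SCC25 and 2 CAL27 control libraries. SCD, which puts the first double bond into saturated fatty acids, was the most abundant member in A253 (590.2 ± 87.2 TPM) and SCC25 (425 ± 31.8 TPM). In CAL27, SCD (194 ± 18.8 TPM) came after EBP, a sterol isomerase (218 ± 2.16 TPM), and FDPS, which makes farnesyl diphosphate (216 ± 0.824 TPM), and its range overlapped neither. The summed level of the 28 members was 2524 ± 130.4 TPM in A253, 1576 ± 51.0 TPM in SCC25 and 1977 ± 49.5 TPM in CAL27. A253 had the highest mean for 15 members, CAL27 for 10 and SCC25 for 3, which were PMVK, DHCR7 and ACSS2. FDFT1, the squalene synthase, stood at 255 ± 1.87 TPM in A253, 59.3 ± 2.62 TPM in SCC25 and 129.8 ± 5.13 TPM in CAL27. DHCR7, which carries out a last reduction to cholesterol, ran the other way for A253, at 24.3 ± 1.59 TPM, against 99.3 ± 1.37 TPM in SCC25 and 96.0 ± 2.74 TPM in CAL27. STARD4, a cytosolic sterol carrier, was low in SCC25 at 5.89 ± 0.277 TPM, beside 40.5 ± 1.71 TPM in A253 and 33.9 ± 4.26 TPM in CAL27. FADS2, a desaturase of polyunsaturated fatty acids, was the least expressed member in SCC25 (3.51 ± 0.373 TPM) and CAL27 (3.34 ± 0.293 TPM), and HSD17B7, a sterol ketoreductase, was the least expressed in A253 (5.81 ± 0.635 TPM). SREBF2 had the smallest ratio between the highest and the lowest line mean, at 30.4 ± 3.03 TPM in A253, 28.7 ± 2.63 TPM in SCC25 and 36.4 ± 0.583 TPM in CAL27. Lines were sequenced with different numbers of libraries and no test was made between them.

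**Figure D1:**
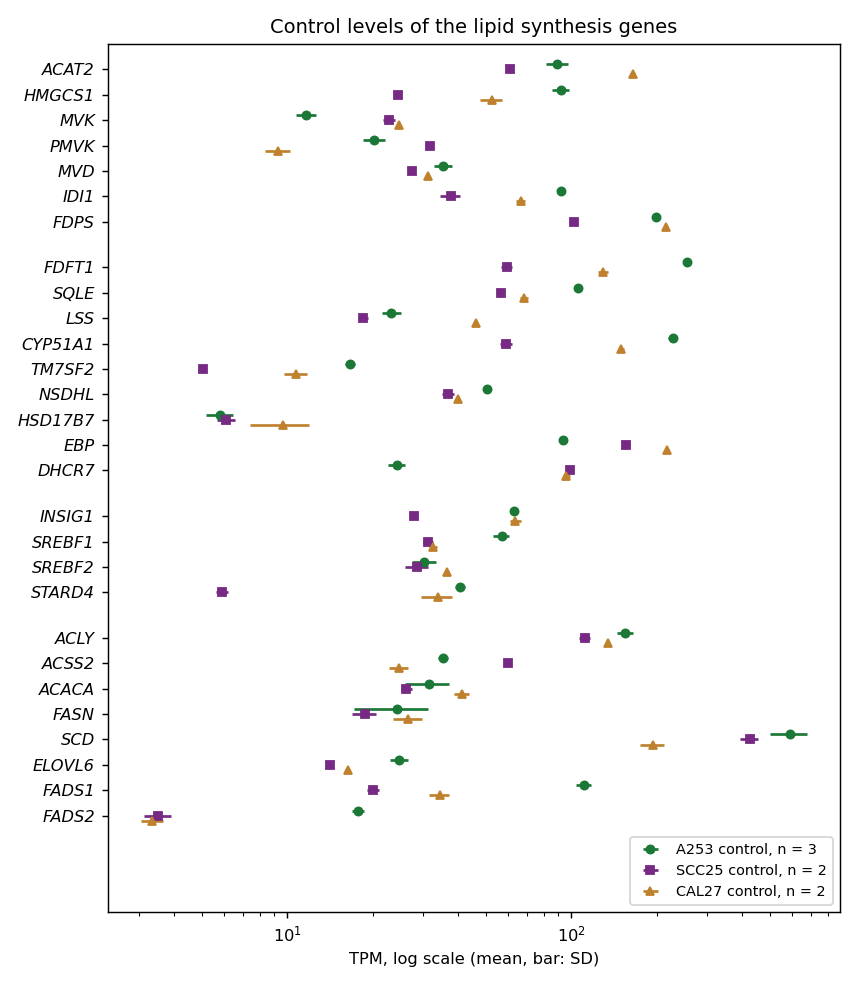
Control level of each member (rows, by role from mevalonate genes at the top to fatty acid genes at the bottom) in TPM on a log axis, as mean and SD over 3 A253, 2 SCC25 and 2 CAL27 control libraries. SCD reaches 590.2 TPM in A253, whereas FADS2 in CAL27 is at 3.34 TPM.

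EHF overexpression in SCC25 was accompanied by lower RNA of lipid synthesis genes in both branches. Of the 28 members, 12 fell and 0 rose, where 11.6% of the 14120 genes tested fell and 12.2% rose. The median log2 change over the members was -0.18, beside 0.003 over all genes tested. The falls lay mainly in the sterol steps, where 7 of 9 genes fell, with 1 of 7 mevalonate genes, 1 of 4 regulators and 3 of 8 fatty acid genes. The changes were modest, from -0.17 (CYP51A1) to -0.74 (HSD17B7) on the log2 scale. In bulk libraries, fewer cells expressing a gene and less RNA per cell cannot be told apart.

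INSIG1, which retains the sterol regulatory proteins in the endoplasmic reticulum, stood at 31.4 and 30.2 CPM in overexpression libraries, against 44.2 and 44.8 CPM in controls. Its log2 change was -0.54 ± 0.08 (± SE, edgeR quasi-likelihood test, adjusted p = 1.05e-05). INSIG1 is both a brake on the pathway and one of its target genes, and here it fell with the enzymes. SCD stood at 813 and 892 CPM in overexpression libraries, against 1227 and 1164 CPM in controls, a log2 change of -0.49 ± 0.06 (adjusted p = 4.18e-07). ELOVL6, which lengthens palmitate, stood at 15.0 and 16.6 CPM, against 24.4 and 25.0 CPM in controls, a log2 change of -0.64 ± 0.10 (adjusted p = 3.06e-05). For all 3 genes both overexpression libraries lay below both controls. The third fatty acid gene that fell was ACACA, the acetyl-CoA carboxylase, with -0.18 ± 0.05 (adjusted p = 0.0121). FASN, the fatty acid synthase, had a log2 value of -0.00 ± 0.07 and ACSS2, which makes acetyl-CoA from acetate, 0.03 ± 0.06; neither passed the threshold.

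Among mevalonate and sterol genes, ACAT2, the cytosolic thiolase that joins 2 acetyl-CoA units, stood at 35.7 and 36.8 CPM in overexpression libraries, against 46.4 and 50.6 CPM in controls (-0.42 ± 0.07, adjusted p = 0.000174). LSS, which closes the sterol ring to give lanosterol, stood at 33.6 and 36.5 CPM, against 43.2 and 47.9 CPM in controls (-0.37 ± 0.08, adjusted p = 0.00104). DHCR7 fell by a like amount (-0.37 ± 0.06, adjusted p = 4.21e-05). SQLE, the squalene epoxidase, fell to 68.0 and 76.5 CPM in overexpression libraries, against 85.7 and 88.6 CPM in controls (-0.26 ± 0.06, adjusted p = 0.00257). FDFT1 stood at 52.5 and 54.8 CPM, against 64.6 and 63.98 CPM in controls (-0.26 ± 0.06, adjusted p = 0.00361). EBP and CYP51A1, a lanosterol demethylase, fell less. EBP stood at 81.0 and 76.5 CPM, against 88.3 and 97.8 CPM in controls (-0.24 ± 0.06, adjusted p = 0.00499). CYP51A1 stood at 85.3 and 91.5 CPM, against 101 and 98.9 CPM in controls (-0.17 ± 0.06, adjusted p = 0.0287). Of the 12, HSD17B7 had the lowest log2 change (-0.74 ± 0.21, adjusted p = 0.011) but the smallest counts, at 3.11 and 2.66 CPM in overexpression libraries, against 4.88 and 4.66 CPM in controls. None of these groups overlapped, a separation that was not counted over all genes.

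The regulators' own transcripts did not pass the threshold in SCC25. SREBF1 stood at 85.0 and 79.2 CPM in overexpression libraries, against 80.7 and 80.6 CPM in controls (0.02 ± 0.06, adjusted p = 0.821), and SREBF2 had a log2 value of -0.05 ± 0.06 (adjusted p = 0.618). STARD4 (0.17 ± 0.15) and TM7SF2, a sterol reductase (0.44 ± 0.18), had the highest values of the set without passing. The other 10 members that did not pass were between -0.23 (PMVK) and -0.06 (ACLY). With DESeq2, 7 of the 12 calls in SCC25 remained. The calls of ACAT2, LSS, DHCR7, INSIG1, SCD and ELOVL6 were kept in all 8 alternatives tried. Without overexpression replicate 1, FDFT1, SQLE, CYP51A1 and ACACA lost their call; without overexpression replicate 2, HSD17B7, EBP and ACACA did. Among 5 proliferation markers in the same libraries, MCM2 (-0.46), CCNB1 (-0.33) and PCNA (-0.27) fell, and the summed level of the 5 was 845 to 854 TPM in overexpression libraries, against 985 to 1014 TPM in controls; the other 2 did not pass. Of 8 squamous markers 3 rose (TP63 0.58, CDH1 0.30 and DSG3 0.22) and 0 fell, and their summed level was 13890 to 14417 TPM in overexpression libraries, against 14527 to 14548 TPM in controls. Of 5 fibroblast markers tested, COL1A2 (1.44) and COL1A1 (0.84) rose and DCN fell (-0.32), with overlapping sums of 75.2 to 79.5 TPM, against 66.1 to 78.3 TPM in controls. The part of these in the lipid gene falls was not tested.

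**Figure D2:**
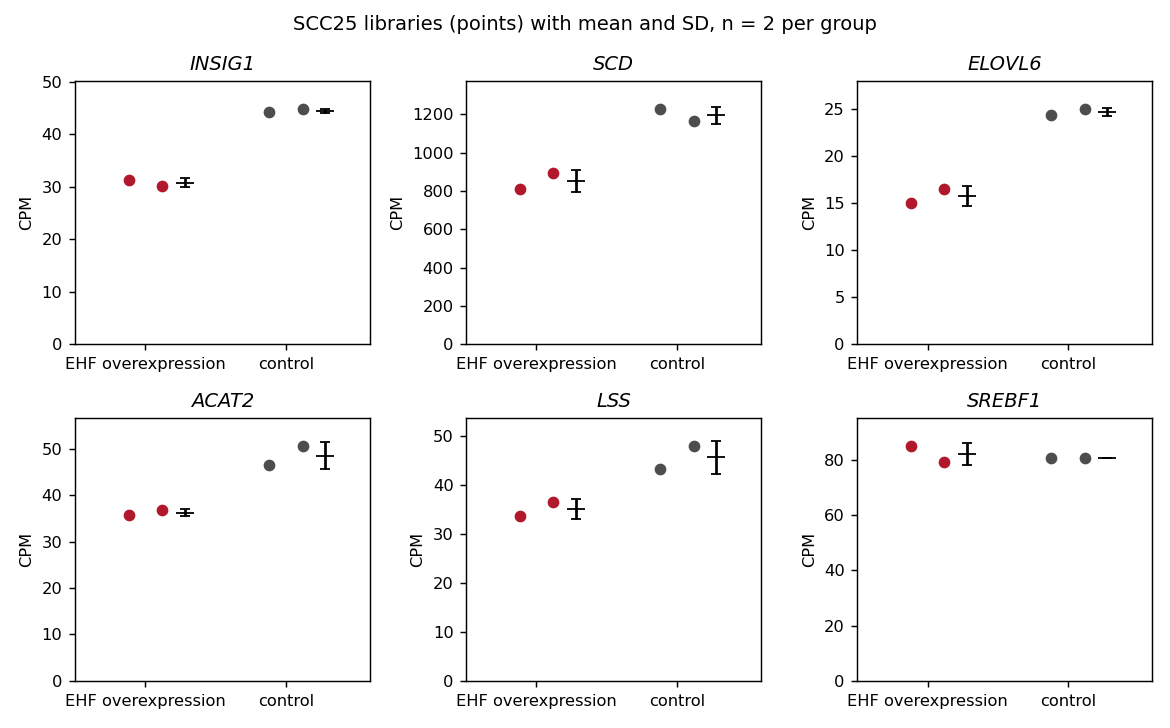
CPM of 6 members in each SCC25 library (points), with mean and SD (bars, n = 2 per group), EHF overexpression on the left and control on the right; axes start at 0. Both overexpression libraries lie below both controls for INSIG1, SCD, ELOVL6, ACAT2 and LSS, whereas SREBF1 overlaps.

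After EHF overexpression in A253, FDFT1 was the single member past the threshold, and it rose, although EHF rose more in A253 than in SCC25. Across all 14503 genes tested, 5.03% rose and 2.94% fell, so 1 rise and 0 falls among 28 members is no more than the share for all genes. The median log2 change over the members was -0.08, beside -0.003 over all genes tested. Values lay below 0 for 20 of the 28 members, and for 7375 of the 14503 genes tested. An unadjusted p under 0.05 was found for 10 of the 28 members, where 19.2% of all genes tested had one. All of these members but FDPS and FDFT1 had values below 0. FDFT1 stood at 311, 298 and 319 CPM in overexpression libraries, against 266, 255 and 278 CPM in controls, without overlap (0.22 ± 0.06, adjusted p = 0.0372). This call was lost with DESeq2 and without any 1 of the overexpression replicates, control replicate 1 or control replicate 2, with adjusted p from 0.0247 to 0.161 over the 10 alternatives. The genes with the clearest falls in SCC25 did not pass here. INSIG1 was at 95.3, 93.2 and 94.8 CPM in overexpression libraries, against 96.3, 91.3 and 99.9 CPM in controls (-0.02 ± 0.06, adjusted p = 0.925). SCD was at 1621, 1393 and 1372 CPM, against 1536, 1792 and 1459 CPM in controls (-0.13 ± 0.09, adjusted p = 0.492), with overlapping groups. The other 25 members had log2 values between -0.29 (PMVK, phosphomevalonate kinase) and 0.19 (SREBF2). FASN was measured with little precision in this line, with an SE of 0.33, from 136, 85.2 and 74.6 CPM in overexpression libraries and 85.2, 131 and 87.4 CPM in controls. In the same libraries 2 of 3 leukocyte markers tested rose, CD14 (1.40) and CD68 (0.47), and the leukocyte list summed to 183 to 210 TPM with overexpression, against 137 to 143 TPM in controls. Of 8 squamous markers KRT14 (-0.33) and KRT6A (-0.26) fell and 0 rose, and the summed level of the 8 was 10334 to 11978 TPM with overexpression, against 12693 to 13056 TPM in controls; their part was not tested.

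The difference between the responses of SCC25 and A253 was tested directly in a joint fit of both lines. It passed for 3 members, all with a lower change in SCC25, where 3.25% of the 15460 genes tested differed in that direction and 2.39% in the other. FDFT1 differed by -0.49 ± 0.09 (SCC25 minus A253 on the log2 scale, adjusted p = 0.00173), since it fell in SCC25 and rose in A253. INSIG1 differed by -0.53 ± 0.09 (adjusted p = 0.00183) and ELOVL6 by -0.57 ± 0.12 (adjusted p = 0.00849). ELOVL6 was at 41.9, 39.8 and 36.5 CPM in A253 overexpression libraries, against 42.3, 42.7 and 39.8 CPM in A253 controls. Its difference lost the call without SCC25 overexpression replicate 1 or SCC25 control replicate 2. For SCD the difference was -0.38 ± 0.13 (adjusted p = 0.128), and for HSD17B7 -0.87 ± 0.26 (adjusted p = 0.0518), so that for 9 of the 12 genes that fell in SCC25 a difference from A253 was not shown.

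**Figure D3:**
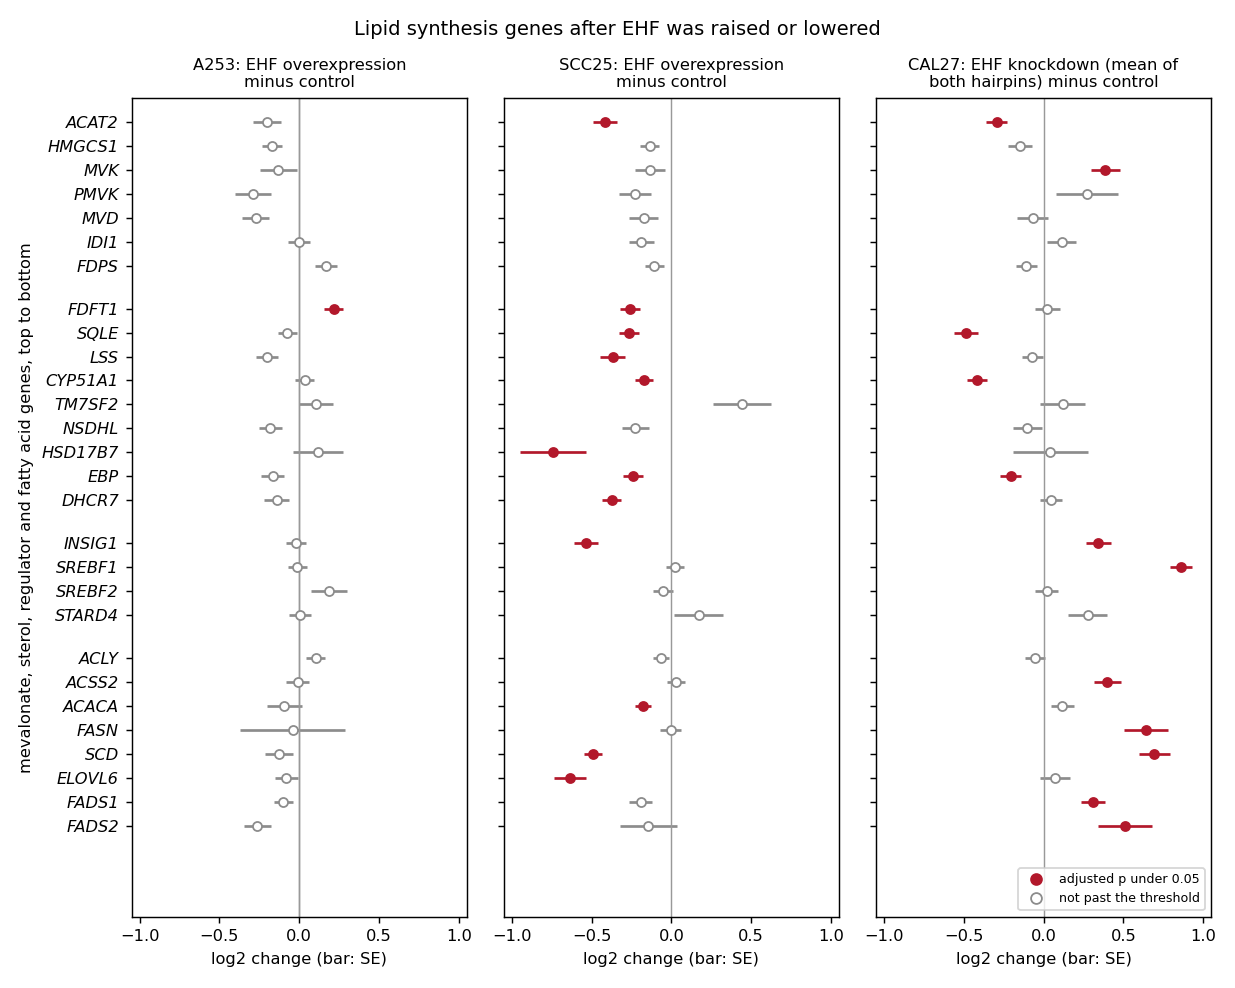
Log2 change (points, bars SE) of each of the 28 members after EHF overexpression in A253 and SCC25 and after EHF knockdown in CAL27 (mean of both hairpins), each minus its own control; filled points are past an adjusted p of 0.05. In SCC25, 12 members are filled and all lie below 0; in A253, 1 is filled; in CAL27, 8 are filled above and 4 below 0.

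EHF knockdown in CAL27, averaged over both hairpins, gave rises mainly among fatty acid genes and falls among sterol genes. Of the 28, 8 rose and 4 fell, where 9.88% of the 13629 genes tested rose and 8.91% fell. Of the 8 fatty acid genes 5 rose (SCD, FASN, FADS2, ACSS2 and FADS1) and 0 fell, and of the 4 regulators SREBF1 and INSIG1 rose. Of the 9 sterol genes, 3 fell (SQLE, CYP51A1 and EBP) and 0 rose, and of the mevalonate genes ACAT2 fell and MVK, mevalonate kinase, rose. The median log2 change was 0.06 over the members, beside 0.003 over all genes. The calls of SREBF1 (0.86 ± 0.07, adjusted p = 1.68e-07), SCD (0.69 ± 0.10, adjusted p = 0.000533), SQLE (-0.49 ± 0.08, adjusted p = 0.000278) and CYP51A1 (-0.42 ± 0.06, adjusted p = 0.000144) were kept in all 10 alternatives. Without control replicate 1 the rises numbered 3, and without control replicate 2 there were 5 rises and 2 falls. FADS2 (0.51 ± 0.17, adjusted p = 0.0415) lost its call in 6 of the 10 alternatives and EBP (-0.21 ± 0.07, adjusted p = 0.0417) in 5. The mean covers 2 hairpins whose values differed for most members.

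With sh 64, 15 of the 28 members rose and 0 fell, where 8.76% of all genes tested rose and 6.89% fell, and the median log2 change over the members was 0.27, beside 0.003 over all genes. All 4 regulators rose, as did 6 of 8 fatty acid genes, 3 of 7 mevalonate genes and 2 of 9 sterol genes. SCD more than doubled relative to control: it stood at 1350.1 and 1329 CPM with sh 64, against 509 and 599 CPM in controls, a log2 change of 1.27 ± 0.11 (adjusted p = 2.2e-05), or 2.42-fold. INSIG1 stood at 173 and 177 CPM with sh 64, against 97.7 and 107 CPM in controls (0.77 ± 0.09, adjusted p = 1.43e-05). ACSS2 stood at 71.4 and 64.7 CPM with sh 64, against 38.4 and 44.1 CPM in controls (0.72 ± 0.10, adjusted p = 7.11e-05). In these genes both sh 64 libraries lay well above both controls. STARD4 stood at 56.6 and 73.1 CPM with sh 64, against 36.0 and 44.1 CPM in controls (0.66 ± 0.13, adjusted p = 0.00545). FASN stood at 192 and 193 CPM with sh 64, against 126 and 109 CPM in controls (0.72 ± 0.15, adjusted p = 0.0192). FADS2 was less abundant, at 8.72 and 9.89 CPM with sh 64, against 5.08 and 5.90 CPM in controls (0.72 ± 0.19, adjusted p = 0.0151), and FADS1, its neighbour in the genome and the next desaturase, rose by 0.50 ± 0.09 (adjusted p = 0.000794). SREBF1 rose by 0.84 ± 0.08 with sh 64. The other 7 rises were smaller, between 0.26 (ACACA) and 0.46 (MVK), with HMGCS1, IDI1, FDFT1, DHCR7 and SREBF2 between them. INSIG1, SREBF1, STARD4, ACSS2, SCD and FADS1 kept their calls in all 10 alternatives. With DESeq2 the rises numbered 10, and SREBF2, HMGCS1, DHCR7, ACACA and FADS2 lost their calls. The count of rises was 7 without either control replicate, 8 without sh 64 replicate 1 and 9 without sh 64 replicate 2.

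With sh 65, genes of the mevalonate and sterol steps fell. Of the 28 members, 8 fell and 1 rose, where 7.01% of all genes tested fell and 7.62% rose, and the median was -0.17, beside 0.006 over all genes. The falls comprised 3 of 7 mevalonate genes and 5 of 9 sterol genes, and 0 of 8 fatty acid genes fell or rose. CYP51A1 stood at 148 and 159 CPM with sh 65, against 251 and 264 CPM in controls (-0.75 ± 0.07, adjusted p = 1.83e-06). SQLE stood at 59.6 and 70.9 CPM with sh 65, against 102 and 110.2 CPM in controls (-0.71 ± 0.09, adjusted p = 4.29e-05). HMGCS1, the synthase that makes HMG-CoA, stood at 93.4 and 108 CPM with sh 65, against 137 and 161 CPM in controls (-0.58 ± 0.09, adjusted p = 0.000289). Both sh 65 libraries lay below both controls for these genes. ACAT2 stood at 90.4 and 96.3 CPM with sh 65, against 130.4 and 137 CPM in controls (-0.52 ± 0.08, adjusted p = 0.000186). EBP stood at 98.8 and 103 CPM with sh 65, against 131 and 132 CPM in controls (-0.38 ± 0.08, adjusted p = 0.00307). FDPS (-0.39 ± 0.08, adjusted p = 0.00242), LSS (-0.35 ± 0.08, adjusted p = 0.00461) and FDFT1 (-0.29 ± 0.09, adjusted p = 0.0397) made up the rest. The calls of ACAT2, HMGCS1, SQLE, CYP51A1 and SREBF1 were kept in all 10 alternatives; without control replicate 2 the falls numbered 4, and FDFT1 lost its call in 6 alternatives. SCD was at 527 and 675 CPM with sh 65, overlapping controls (0.12 ± 0.11, adjusted p = 0.547). Of the fatty acid genes FASN was closest to the threshold, at 202 and 143 CPM with sh 65 (0.56 ± 0.15, adjusted p = 0.0505), and its 2 libraries differed widely.

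**Figure D4:**
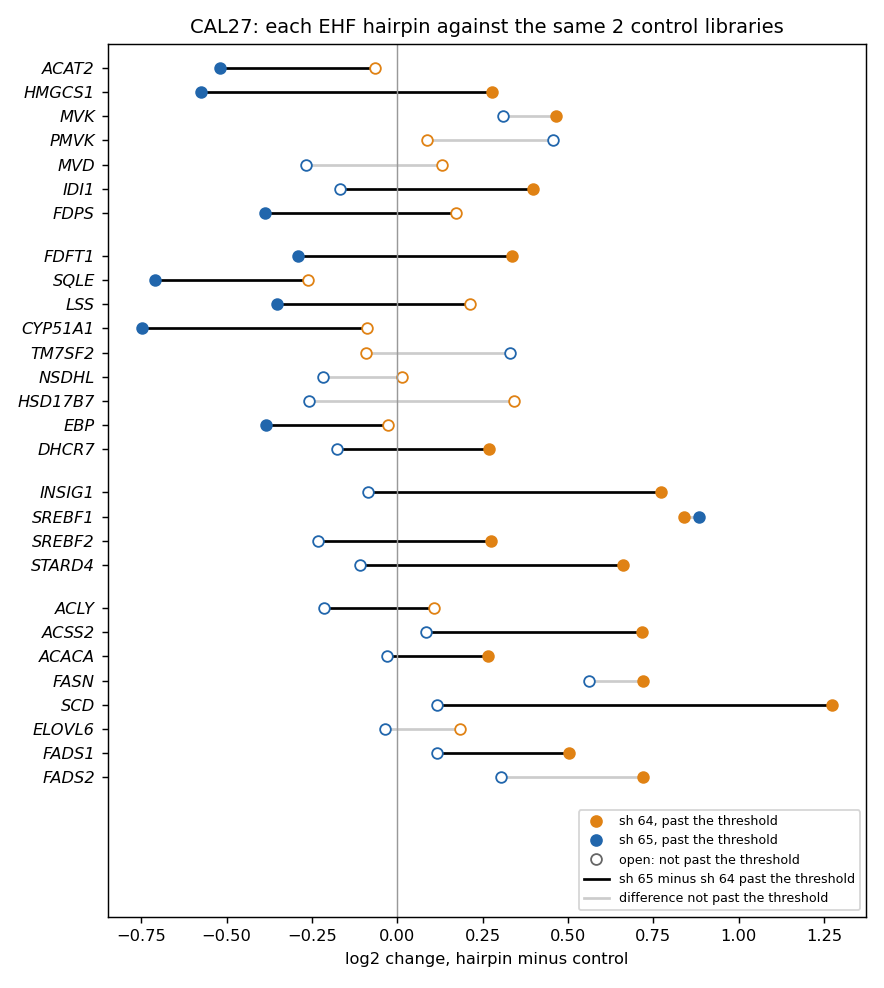
Log2 change of each member with sh 64 (orange) and sh 65 (blue) minus the same 2 CAL27 controls; filled points are past an adjusted p of 0.05, and a black line joins the hairpins where sh 65 minus sh 64 is itself past it. The line is black for 18 of 28 members, with sh 65 on the left in each, and the SREBF1 points lie together at 0.84 and 0.88.

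The hairpins were then compared with each other. This difference passed for 18 of 28 members, each lower with sh 65 than with sh 64, and for 0 in the other direction, where 3.13% of all genes tested were lower with sh 65 and 2.21% higher. The median over the members was -0.45, beside 0.001 over all genes, and 25 of 28 members had a value below 0. It touched every role: 4 of 7 mevalonate genes, 6 of 9 sterol genes, 3 of 4 regulators and 5 of 8 fatty acid genes. SCD differed by -1.16 ± 0.11 (sh 65 minus sh 64 on the log2 scale, adjusted p = 8.71e-05), INSIG1 by -0.86 ± 0.09 (adjusted p = 1.29e-05), HMGCS1 by -0.85 ± 0.09 (adjusted p = 1.64e-05) and STARD4 by -0.77 ± 0.14 (adjusted p = 0.00656). INSIG1 stood at 87.8 and 106 CPM with sh 65, and 173 and 177 CPM with sh 64. HMGCS1 stood at 93.4 and 108 CPM with sh 65, and 183 and 180.1 CPM with sh 64. STARD4 stood at 34.4 and 41.1 CPM with sh 65, and 56.6 and 73.1 CPM with sh 64. In each of these genes both sh 65 libraries lay below both sh 64 libraries, and so they did for 23 of the 28 members in all, where 22.7% of all genes tested did. Of the 18 calls 12 were kept in all 10 alternatives. Each of the other 6 was lost in at least 1 run that left out a library: ACACA in 5 alternatives, FADS1 in 3, IDI1 and SQLE in 2 each, and ACLY and EBP in 1 each.

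Single genes show how the mean of the hairpins can hide movement. HMGCS1 and FDFT1 passed the threshold upward with sh 64 and downward with sh 65, a pattern not counted over all genes. Neither HMGCS1 nor FDFT1 passed on the mean. These were the 2 members called in opposite directions, and the calls depended on the settings: with sh 64, HMGCS1 lost its call in 4 of 10 alternatives, DESeq2 among them, and FDFT1 in 3; with sh 65, FDFT1 lost its call in 6. FDFT1 stood at 184 and 177 CPM with sh 64 and 105 and 129 CPM with sh 65, against 137 and 148 CPM in controls. IDI1, the isopentenyl diphosphate isomerase, stood at 95.7 and 99.8 CPM with sh 64 and 57.0 and 75.2 CPM with sh 65, against 71.1 and 76.6 CPM in controls, a difference between hairpins of -0.57 ± 0.11 (adjusted p = 0.00485). It rose with sh 64 and overlapped controls with sh 65, and its difference lost the call without sh 64 replicate 1 or sh 64 replicate 2, with values from -0.78 to -0.37 over the 10 alternatives. FDPS and LSS fell with sh 65 and did not pass with sh 64. FDPS was at 207 and 211 CPM with sh 64 and 134 and 151 CPM with sh 65, against 183 and 189 CPM in controls (-0.56 ± 0.08 between hairpins, adjusted p = 0.00025). LSS was at 131 and 134 CPM with sh 64 and 91.8 and 87.4 CPM with sh 65, against 113 and 116 CPM in controls (-0.57 ± 0.08 between hairpins, adjusted p = 0.000213). SREBF2, which carries the sterol regulatory element printed above, rose with sh 64 and did not pass with sh 65: it was at 95.3 and 103 CPM with sh 64 and 66.9 and 72.4 CPM with sh 65, against 81.6 and 81.9 CPM in controls (-0.51 ± 0.09 between hairpins, adjusted p = 0.00135). The rise of SREBF2 with sh 64 lost its call with DESeq2. The remaining called differences were ACAT2, SQLE, CYP51A1, EBP, DHCR7, ACLY (ATP citrate lyase), ACSS2, ACACA and FADS1, between -0.29 (ACACA) and -0.66 (CYP51A1).

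SREBF1 stood at 149 and 155 CPM with sh 64 and 159 and 154 CPM with sh 65, against 85.7 and 84.4 CPM in controls. The log2 change was 0.84 ± 0.08 with sh 64 (edgeR quasi-likelihood test, adjusted p = 1.3e-06) and 0.88 ± 0.08 with sh 65 (adjusted p = 3.72e-07). SREBF1 was the 1 member of 28 that passed in the same direction with both hairpins. How many of all genes did so was not counted, and both hairpins were set against the same control libraries. MVK (0.31 ± 0.11 with sh 65, adjusted p = 0.057) and FASN were close to the threshold with sh 65. MVK and FASN lay above both controls with each hairpin, as did FADS2, while ACAT2, SQLE and CYP51A1 lay below both controls with each. This separation from the shared controls was not counted over all genes. With sh 65, members called higher numbered 2 with relative log expression (RLE) scaling and 3 with a replicate block, so the count of 1 depends on the settings. For SREBF1 the difference between hairpins was 0.04 ± 0.08 (adjusted p = 0.823). SREBF1 did not pass in A253 (-0.01 ± 0.06) or SCC25 (0.02 ± 0.06). The window printed for SREBF1 holds 3 GC boxes and none of the other motifs searched; the gene has other starts outside it. In RefSeq, SREBF1 overlaps RAI1, and 7 of the 28 members overlap another protein-coding gene (ACAT2, MVK, IDI1, SREBF1, ACACA, FADS1 and FADS2); 5 have named pseudogenes (IDI1, FDPS, CYP51A1, HSD17B7 and SCD). The strand setting of the counting is not given in the sources used here, so some reads of these genes may belong to their neighbours or copies.

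**Figure D5:**
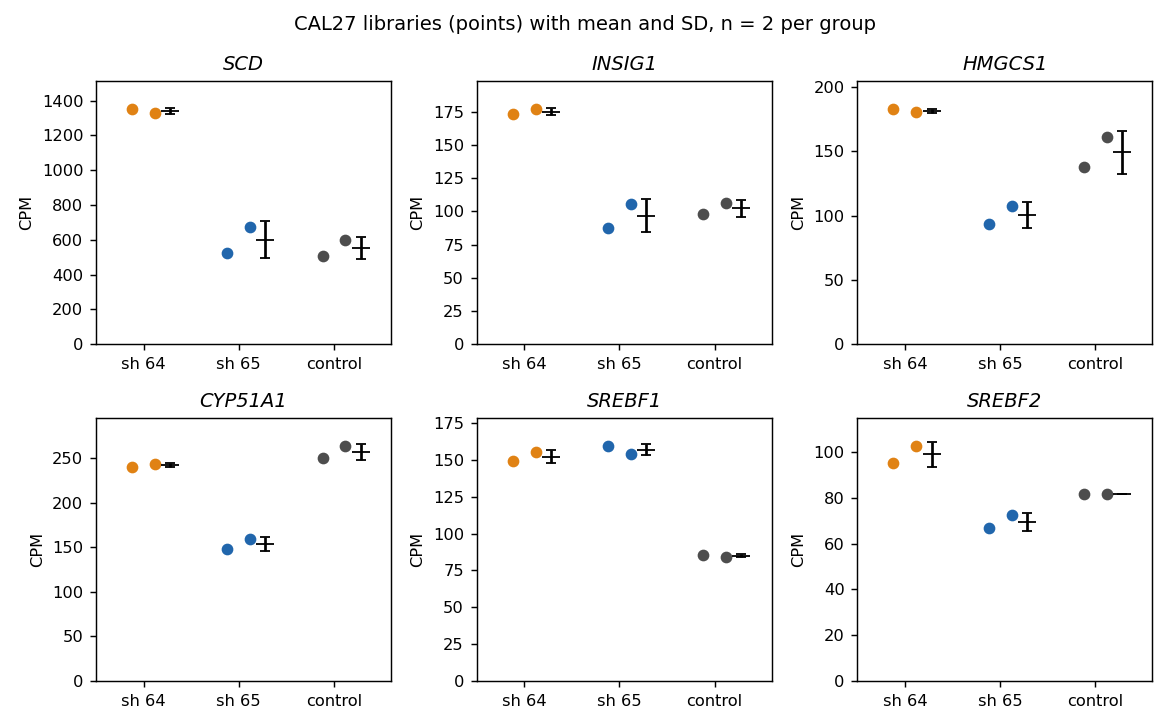
CPM of 6 members in each CAL27 library (points), with mean and SD (bars, n = 2 per group), in the order sh 64, sh 65 and control; axes start at 0. SCD and INSIG1 are high with sh 64 alone, CYP51A1 is lowest with sh 65, HMGCS1 and SREBF2 lie on opposite sides of control, and SREBF1 is high with both hairpins.

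Other measures also moved in the CAL27 libraries. Of 8 squamous markers 5 rose and 0 fell with each hairpin, among them KRT14 by 1.20 with sh 64 and 1.26 with sh 65, and KRT6A by 0.95 and 0.87 in the same order, and the summed level of the 8 was 8237 to 8591 TPM with sh 64 and 9004 to 9769 TPM with sh 65, against 6145 to 6313 TPM in controls. The 5 proliferation markers summed to 1113 to 1147 TPM with sh 64 and 1258 to 1270.4 TPM with sh 65, against 1365 to 1395 TPM in controls. Of 3 fibroblast markers tested, LUM rose with sh 64 (1.54) and 0 were called with sh 65, and the summed level of the list was 9.41 to 11.7 TPM with sh 64 and 4.65 to 5.78 TPM with sh 65, against 4.65 to 4.97 TPM in controls. Their part in the lipid gene results was not tested.

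The members called after overexpression and after knockdown overlapped in part. Of the 12 members that fell with EHF overexpression in SCC25, INSIG1 and SCD rose on the CAL27 mean (2 of the 12, and 2 of the 8 that rose). SCD was at -0.49 in SCC25, 1.27 with sh 64 and 0.12 with sh 65 on the log2 scale, and INSIG1 at -0.54, 0.77 and -0.09 in the same order. ACAT2, SQLE, CYP51A1 and EBP fell both in SCC25 and on the CAL27 mean (4 of the 12, and 4 of the 4 that fell). Among the 12951 genes tested in both comparisons, 8.4% of those that fell in SCC25 rose on the CAL27 mean, which is 10.3% of the rises there, and 17% fell in both, which is 22.7% of the falls there. No test was made of the overlap, and counts this small are given as a description. For CYP51A1 the values were -0.17 in SCC25 and -0.42 on the CAL27 mean, and for SQLE -0.26 and -0.49. The lines differ in origin and in starting EHF, and no test was made between overexpression and knockdown.

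Another 42 genes of lipid supply and its control, listed by pathway, were measured beside the members. Among all genes tested, 12.2% rose and 11.6% fell in SCC25. With sh 64, 8.76% rose and 6.89% fell, and with sh 65, 7.62% rose and 7.01% fell. Between hairpins, 2.21% were higher and 3.13% lower with sh 65. The counts below are to be read beside these shares. Of the 17 other cholesterol genes, 0 rose and 7 fell in SCC25, 4 rose and 3 fell with sh 64, 0 rose and 3 fell with sh 65, and 0 were higher and 5 lower with sh 65 than with sh 64. TMEM97, a sterol-regulated membrane protein, fell to 45.4 and 49.2 CPM with sh 64 and 44.8 and 44.3 CPM with sh 65, against 74.5 and 79.1 CPM in controls (-0.71 ± 0.09 with sh 64, adjusted p = 3.41e-05; -0.79 ± 0.09 with sh 65, adjusted p = 8.74e-06). TMEM97 thus fell with both hairpins. Of the 19 other fatty acid genes, 3 rose and 5 fell in SCC25, 3 rose and 3 fell with sh 64, 1 rose and 4 fell with sh 65, and 0 were higher and 4 lower with sh 65 than with sh 64. ACSL1, an acyl-CoA synthetase, stood at 34.03 and 31.8 CPM with sh 64 and 18.9 and 26.0 CPM with sh 65, against 15.1 and 18.1 CPM in controls (-0.57 ± 0.14 for sh 65 minus sh 64, adjusted p = 0.0277). ME1, the malic enzyme that supplies NADPH to lipid synthesis, stood at 110.5 and 112 CPM with sh 64 and 79.4 and 84.0 CPM with sh 65, against 70.5 and 73.1 CPM in controls (-0.44 ± 0.08 between hairpins, adjusted p = 0.00258). Both genes were highest with sh 64, as SCD was.

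Among genes of the liver X receptors and of sterol efflux, the called changes in CAL27 were rises with sh 65. Of 6 such genes, 3 rose and 0 fell with sh 65, where 7.62% of all genes rose. With sh 64, 0 rose and 0 fell, where 8.76% of all genes rose and 6.89% fell. Between hairpins, 1 was higher with sh 65 than with sh 64, where 2.21% of all genes were. ABCG1, a sterol exporter, stood at 4.17 and 3.96 CPM with sh 64 and 7.90 and 9.19 CPM with sh 65, against 3.31 and 2.87 CPM in controls; its difference between hairpins was 1.06 ± 0.22 (sh 65 minus sh 64, adjusted p = 0.00754). ABCA1, a second exporter, stood at 71.4 and 68.9 CPM with sh 65, against 62.1 and 53.3 CPM in controls (0.29 ± 0.09, adjusted p = 0.0418). MYLIP, an E3 ubiquitin ligase, stood at 32.4 and 40.3 CPM with sh 65, against 29.4 and 27.3 CPM in controls (0.36 ± 0.12, adjusted p = 0.0492). For ABCA1 and MYLIP the difference between hairpins did not pass (0.32 ± 0.10, adjusted p = 0.0654, and 0.32 ± 0.12, adjusted p = 0.16). ABCA1 also rose with EHF overexpression in A253 (0.30 ± 0.08, adjusted p = 0.0331) and in SCC25 (0.26 ± 0.05, adjusted p = 0.000293). In A253, 2 of the 42 rose and 3 fell, where 5.03% of all genes rose and 2.94% fell. Of the 17 other cholesterol genes 1 fell in A253, and the lowest log2 value among them was -0.38. SC5DL stood at 148 ± 6.13 CPM (mean ± SD) in A253 overexpression libraries, against 193 ± 2.34 CPM in A253 controls. Among the 42, ELOVL7 rose there (0.29 ± 0.08, edgeR quasi-likelihood test, adjusted p = 0.0293). LPIN1, a phosphatidate phosphatase, fell (-0.28 ± 0.07, same test, adjusted p = 0.0123). The same 2 genes moved the same way in SCC25 (ELOVL7 0.61 ± 0.15, adjusted p = 0.00499; LPIN1 -0.51 ± 0.11, adjusted p = 0.00136).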

How the data were processed

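The deposited tables hold the authors' raw counts per gene symbol, 1 table per cell line with 23710 genes each, and the authors' TPM for the same genes. Per the submitters' processing notes, TopHat2 2.1.1, Bowtie 1.1.1, featureCounts 1.5.3, DESeq2 1.12.4 and hg19 were used. The names of 696 genes (0 members) were altered in the CAL27 counts and were restored by row position, after the lengths implied by counts and TPM matched A253 within 0.01 log2 for 17691 of 17691 genes compared. TPM here were computed from counts and these lengths, and the 4 SCC25 TPM columns were not used. EHF ChIP and input libraries of CAL27 were not analysed here.

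Counts were tested with edgeR 4.0.16 in R 4.3.3 (filterByExpr, TMM, robust quasi-likelihood), per line, with the 3 CAL27 groups in 1 fit and a joint fit of A253 and SCC25 for the difference between lines. P-values are two-sided, adjusted by Benjamini and Hochberg over all genes tested, and called under 0.05. The scripts were tested on simulated data. Library values were given for members called in at least 2 of the 3 main comparisons, among the 5 largest called changes of any comparison, or differing between hairpins or lines by at least 0.5 (log2); other members get a change or a range, and the genes of the closing observation were chosen after their values were seen. Alternatives were RLE scaling, DESeq2 1.42.0, no filter, a replicate block and leaving out each library. Members and lists were chosen with earlier results of these data known.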

Additional observations from a re-analysis of the deposited data

Results flagged for a closer look

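The difference between the CAL27 hairpins (sh 65 minus sh 64, log2) passed the test of the difference itself for 18 members. The values were ACAT2 -0.46, HMGCS1 -0.85, IDI1 -0.57 and FDPS -0.56 among mevalonate genes. They were FDFT1 -0.63, SQLE -0.45, LSS -0.57, CYP51A1 -0.66, EBP -0.36 and DHCR7 -0.44 among sterol genes. They were INSIG1 -0.86, SREBF2 -0.51 and STARD4 -0.77 among regulators and ACLY -0.32, ACSS2 -0.63, ACACA -0.29, SCD -1.16 and FADS1 -0.39 among fatty acid genes. EHF itself was at 443 and 469 CPM with sh 65 and 496 and 525 CPM with sh 64.

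The response of SCC25 differed from that of A253 (SCC25 minus A253, log2) for FDFT1 (-0.49), INSIG1 (-0.53) and ELOVL6 (-0.57).

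In the 4 CAL27 knockdown libraries, FASN was at 143 CPM in sh 65 replicate 2, below the other 3 by a gap that exceeded Dixon's 95% limit for a group of 4. Among 28 members looked at, chance alone flags about 1 in 20 groups.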

How the results depend on the processing

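No member's call changed sign under any alternative. DESeq2 called fewer genes: 1589 in SCC25, 1481 on the CAL27 mean, 1221 with sh 64, 1217 with sh 65, 450 between hairpins and 536 between lines, with 7 members lower in SCC25 and 0 higher in A253. With no filter on low counts, 1 member was lower in A253, 1 lower with sh 64 and 2 higher with sh 65. RLE scaling gave 2 members higher with sh 65.

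Same-numbered libraries did not vary together in A253 (correlations of deviations -0.242 to 0.238) or SCC25 (-0.0275). In CAL27 these correlations were -0.0109 to 0.175, and the replicate block called more genes, 3317 against 2560 on the mean. These CAL27 values and the replicate block use the replicate numbers of the counts, and the TPM number the sh 64 libraries in opposite order. With that order the sh 64 correlations would be 0.0109 with controls and -0.0813 with sh 65. Whether replicate numbers pair the CAL27 libraries was not tested further. With the replicate block, 1260 genes differed between hairpins, against 728 without it. In that fit 3 members were higher with sh 65 and 1 was lower with sh 64, and no call of a member was lost.

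Leaving out 1 library at a time, where a lone library is assumed to vary like the others, gave these ranges. In A253, there were 658 to 1036 genes, 0 to 1 members higher, 0 to 3 lower (3 without control replicate 2) and medians of -0.099 to -0.047. In SCC25, there were 2124 to 3639 genes and medians of -0.20 to -0.18. On the CAL27 mean, there were 937 to 3038 genes, 3 to 10 members higher and 2 to 5 lower. With sh 64, there were 866 to 2876 genes, 7 to 16 members higher, 0 to 1 lower and medians of 0.21 to 0.30. With sh 65, there were 879 to 2026 genes, 1 to 3 members higher, 4 to 9 lower and medians of -0.22 to -0.0941. Between hairpins, there were 263 to 1048 genes, 13 to 18 members lower and medians of -0.52 to -0.39. Between lines, there were 318 to 936 genes and medians of -0.18 to -0.10. The cause was not tested. With 2 libraries a group and down to 7068155 counts, small changes of low genes such as HSD17B7 and FADS2 are beyond this depth.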

Other observations

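Within A253, some members varied more between libraries of a group than between groups. In overexpression replicate 1, FASN (136 CPM), SREBF2 (87.9 CPM), ACACA (185 CPM) and SCD (1621 CPM) were each the highest of the 3 overexpression libraries. In control replicate 2, FASN (131 CPM), SREBF2 (69.6 CPM), ACACA (204 CPM) and SCD (1792 CPM) were each the highest of the 3 controls. FASN, SREBF2, ACACA and SCD were chosen after their values were seen. Over all genes tested in A253, deviations from the group mean in overexpression replicate 1 and control replicate 2 correlated at 0.386. For overexpression replicate 3 and control replicate 2 this correlation was -0.415. The pattern is therefore not shown to be particular to the genes named.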
